A study of Rattus norvegicus with 108 samples.

Results

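The genes described here were 8 components of the myelin sheath, Mbp, Mobp, Mal, Mag, Mog, Cldn11, Ermn and Cnp, out of 19127 genes in the count tables of a single-cell RNA-seq experiment on the rat dentate gyrus. They were chosen by symbol, and all 8 symbols had a row in both tables. Their levels were read in oligodendrocytes, in oligodendrocyte precursors and in all other cell types, and regions, droplet reactions and treatment were compared.

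The dorsal (dorDG) and ventral (venDG) dentate gyrus were punched from male Long-Evans rats, 2 months of age at the start per the labels, whose drinking water held fluoxetine at 18 mg/kg (FT) or nothing (Sham) for 6 weeks. There were 4 dorDG FT replicates (numbered 1, 2, 4 and 5) and 5 each of dorDG Sham, venDG FT and venDG Sham. Per the study's methods each replicate was a pool of animals, so the p-values below measure the spread between pools. Where 2 reactions of 1 pool were compared, they set that difference against its variation between pools, as estimated with information shared over genes. The cells were loaded in 27 droplet reactions of 4 index libraries each.

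In 11 replicates there was 1 reaction, and in 8 there were 2, called the first and the second reaction here by the order of their names. The labels speak of nuclei, while the methods describe a whole-cell suspension and nuclei from an aliquot, and neither source says which reaction held which. In the second reactions 78.3% to 97.3% of cells had under 2% of their UMIs (unique molecular identifiers, each a counted RNA molecule) from ribosomal protein genes, against 5.10% to 18.8% in the first. Median UMIs per cell by reaction ran from 1516 to 6241, totals per replicate ran from 220162 to 1523537, and 9 barcodes were found in more than 1 reaction.

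The 1289 dorDG cells carried the authors' 12 cell types, and the 2058 venDG cells used carried none. All 3347 cells were therefore also clustered together without the 8 genes, and clusters were named from other markers ("Oligodendrocyte-like", "OPC-like" and 7 further names, the latter called the other classes). The 516 cells of 8 clusters that could not be named belong to none of these classes. In dorDG these unnamed cells held 62.5 Mbp UMIs per 10000, against 46.9 in the other classes. In venDG the values were 27.1 and 23.1. Oligodend1 passed 14 and Oligodend2 passed 11 of 15 oligodendrocyte markers, and 255 of their 266 cells fell in Oligodendrocyte-like clusters. OPC, the oligodendrocyte precursor cells, passed 6 of 7 precursor markers and 0 of the 15. Some other names went against their markers. InhibNeuron passed 5 of 7 granule cell markers and 1 of 8 inhibitory ones, Mossy passed 6 of 6 mural and 5 of 7 endothelial markers, and Granule passed 0 of 7 granule markers, so these names are used below as the authors' labels only.

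Myelin is the stack of membrane that oligodendrocytes wrap around axons. Mbp encodes myelin basic protein, which holds the inner faces of that membrane together, and Mobp another basic protein of the compact sheath. Mal encodes a proteolipid of raft-like membrane domains, and Cldn11 the claudin of myelin tight junctions. Mag encodes an adhesion molecule of the wrap next to the axon, and Mog an immunoglobulin-type protein of the outermost layer. Ermn encodes a cytoskeletal protein of the mature cell, and Cnp an enzyme of the uncompacted cytoplasm that is already made in late precursors. The RNA of Mbp is the textbook case of RNA carried from the cell body into oligodendrocyte processes and translated beside the sheath.

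The start regions are shown of the 2 genes whose RNA was most reduced in the second reactions, Mal and Cnp, and of 1 that was less so, Mag (values below). Each line holds the 250 bases upstream of the RefSeq start in build GRCr8, 5′ to 3′ on the gene's strand. Capitals mark the hexamer ACAAAG or its reverse complement CTTTGT, a core bound by SOX-family factors such as Sox10, the lineage factor of oligodendrocytes. Mal lies at chr3:135341424-135341673 (minus strand), Mag at chr1:95291045-95291294 (minus strand) and Cnp at chr10:86011254-86011503 (plus strand).
Mal: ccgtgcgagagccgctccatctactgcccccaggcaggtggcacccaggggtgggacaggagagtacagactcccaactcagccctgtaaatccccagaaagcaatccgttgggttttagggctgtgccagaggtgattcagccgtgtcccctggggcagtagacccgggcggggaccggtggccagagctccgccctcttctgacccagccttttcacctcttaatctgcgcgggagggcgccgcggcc
Mag: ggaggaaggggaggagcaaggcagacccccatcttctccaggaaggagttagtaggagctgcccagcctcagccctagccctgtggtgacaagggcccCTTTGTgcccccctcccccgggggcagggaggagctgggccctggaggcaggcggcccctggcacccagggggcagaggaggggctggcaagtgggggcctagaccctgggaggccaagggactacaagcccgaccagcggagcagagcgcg
Cnp: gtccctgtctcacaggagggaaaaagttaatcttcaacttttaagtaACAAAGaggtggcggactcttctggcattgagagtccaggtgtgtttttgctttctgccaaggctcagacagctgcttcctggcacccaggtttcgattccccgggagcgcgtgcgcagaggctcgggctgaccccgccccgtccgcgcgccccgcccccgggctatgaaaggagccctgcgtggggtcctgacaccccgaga
The windows of Mag and Cnp held 1 match each, and those of Mal and Cldn11 held 0. Of the 33469 windows in the table, 16.3% held the hexamer on either strand. GC content was 64.8% for Mal, 70% for Mag and 60.4% for Cnp, above the median of 51.2% over the table. Of the 8 genes, 6 had a window there, and the matches of Mbp and Mobp are not given here. A match is a description of letters, and its absence says nothing about the factor.

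RNA of Mbp and Mobp was read throughout the tissue, while RNA of the other 6 genes was read mostly in oligodendrocytes. Levels are UMIs of a gene per 10000 UMIs of the same cells. They count 3′ ends and are not scaled to transcript length, so they compare cells rather than genes. In the 266 Oligodend1 and Oligodend2 cells together Mbp stood at 137, and in the 936 cells of the 9 types other than oligodendrocytes and OPC (the other types) it stood at 49.2, which was 35.8% of the oligodendrocyte level. For Mobp the levels were 31.8 and 9.63, or 30.3%. Median depth was 4780 UMIs per oligodendrocyte and 3573 per cell of the other types.

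The other 6 genes were far lower outside oligodendrocytes. Mal stood at 24.6 in oligodendrocytes and 0.43 in the other types (1.74%), Cldn11 at 32.5 and 0.66 (2.03%) and Cnp at 42.5 and 1.24 (2.92%). Mag stood at 17.4 and 0.64 (3.67%), Ermn at 12.8 and 0.59 (4.63%) and Mog at 19.3 and 1.51 (7.83%). As folds of oligodendrocytes over the other types, Mbp and Mobp reached 2.79 and 3.30, and the remaining 6 lay between 12.8 for Mog and 57.4 for Mal. Without the second reactions, which were left out after seeing the data, the other types held 32.1% of the oligodendrocyte level of Mbp and 1.92% of that of Mal.

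**Figure D1:**
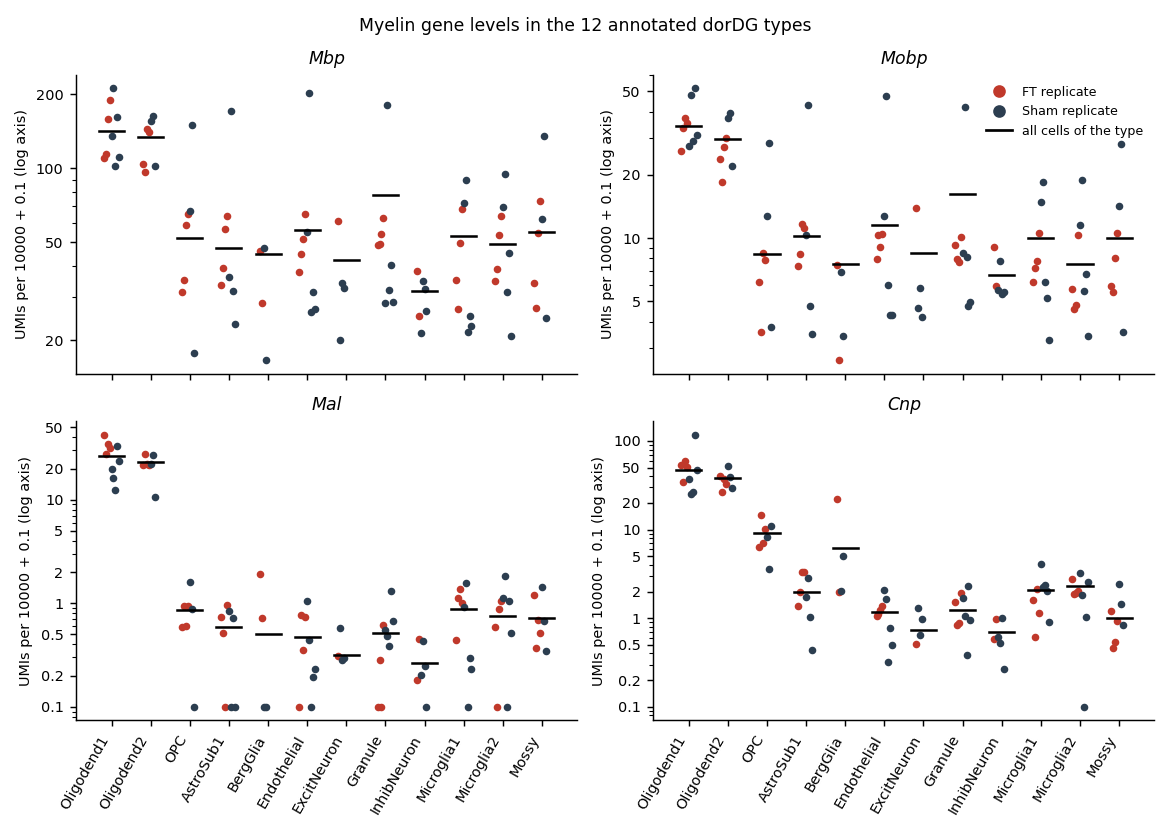
Levels of Mbp, Mobp, Mal and Cnp in the 12 annotated dorDG types, in UMIs per 10000 plus 0.1 on log axes. Points are replicates (red FT, dark blue Sham) in which the type had 5 cells or more, and bars are the level over all cells of the type. Mbp and Mobp points of other types reach into the range of Oligodend1 and Oligodend2, whereas Mal and Cnp points of the other types lie below it with the exception of 1 BergGlia replicate for Cnp, which comes close.

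The replicates showed the same split. In oligodendrocytes the 9 dorDG replicates ran from 102 to 176 for Mbp and in the other types from 25.2 to 146, so the 2 ranges overlapped, through 1 replicate of the other types, dorDG Sham 2. Mobp ran from 24.5 to 42.0 and from 4.46 to 32.6, with the same replicate at the top of the other types. For the remaining 6 genes the ranges were wide apart: 11.3 to 34.5 against 0.13 to 0.79 for Mal, 28.4 to 92.8 against 0.51 to 1.77 for Cnp, 16.2 to 27.8 against 0.92 to 3.17 for Mog.

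Cldn11 ran from 23.0 to 59.8 in oligodendrocytes and from 0.31 to 1.12 in the other types, Mag from 12.9 to 52.1 and from 0.31 to 0.96, and Ermn from 8.78 to 16.5 and from 0.15 to 1.49. These levels carry no test, because the genes were taken up with their pattern known.

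By type, the level of Mbp was highest in the 2 oligodendrocyte types (141 in Oligodend1 and 134 in Oligodend2), then in Granule (77.9), Endothelial (56.0), Mossy (54.9), Microglia1 (52.9), OPC (52.0), Microglia2 (49.2), AstroSub1 (47.3), BergGlia (44.6), ExcitNeuron (42.5) and InhibNeuron (31.7). Below the oligodendrocytes no neighbours in this order parted beyond the spread of their replicates. The highest single replicates were Endothelial at 202, Granule at 181 and AstroSub1 at 172, each from dorDG Sham 2. Mobp followed Mbp, from 6.59 in InhibNeuron to 16.2 in Granule.

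In the other types the low 6 genes covered narrow ranges: 0.17 to 0.77 for Mal, 0.50 to 1.14 for Mag, 0.41 to 1.05 for Cldn11, 0.39 to 1.41 for Ermn and 0.82 to 2.19 for Mog. Cnp ranged wider, from 0.59 in InhibNeuron to 6.03 in BergGlia, and it was the gene of the 8 that stood out in OPC. Its level there was 8.97, or 21.1% of that in oligodendrocytes, with replicates between 3.47 and 14.6. The 5 remaining genes of the low set stood in OPC at 0.58 (Mag) to 1.57 (Mog), close to the other types. In the 196 OPC-like cells of venDG, Cnp stood at 8.47 beside 22.1 for Mbp.

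By UMIs summed over cells, Oligodend1 stood above Oligodend2 for Mbp (141 and 134), Mobp (34.0 and 29.6), Mal (26.3 and 23.0) and Mag (19.8 and 15.1). So it did for Mog (23.2 and 15.3), Ermn (15.3 and 10.3) and Cnp (47.2 and 37.9), but not for Cldn11 (32.3 and 32.7). Averaged over cells, Oligodend1 stood lower for Mal (18.4 and 21.5), Cnp (28.0 and 34.7), Cldn11 (20.8 and 29.4) and, barely, Mbp (131 and 132). The other genes kept their order. With cells thinned to 1000 UMIs, Mal was seen in 56.9% and 84.6% of cells and Cnp in 69.4% and 86.8%. A single cell of dorDG Sham 4, described below, added to the Oligodend1 sums of Mag, Cnp and Cldn11. For Mog the replicates of the 2 types ran from 20.1 to 35.7 and from 11.6 to 18.0. The authors' types were not formed without these genes, and the share of all genes parted in this way was not worked out. The difference therefore only describes the 2 types. Depth differed between them, with medians of 2499 and 7050 UMIs per cell. So did their share in cluster 5 of the joint clustering, described below, which was low in ribosomal UMIs, Mal and Cnp. That cluster held 18.8% (FT) and 58.9% (Sham) of the Oligodend1 cells, and 0% and 15.2% of the Oligodend2 cells. Ventral oligodendrocytes held the genes at like levels. In the 418 Oligodendrocyte-like cells of venDG, Mbp stood at 107, Mobp at 26.1, Mal at 27.8, Mag at 17.7, Mog at 17.9, Cldn11 at 31.3, Ermn at 16.6 and Cnp at 47.2.

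Counts per cell gave the same picture at equal depth. With each dorDG cell thinned to 1000 UMIs, which left out 329 shallower cells over both regions (31 of the oligodendrocytes, 109 of the other types), Mbp was seen in 100% of oligodendrocytes and 95.5% of the cells of the other types. Mobp was seen in 93.6% and 53.9%. For the low set the shares were 67.7% and 2.90% (Mal), 77.9% and 5.68% (Mag), 81.3% and 14.03% (Mog), 72.8% and 5.93% (Cldn11), 58.3% and 4.84% (Ermn) and 76.2% and 10.0% (Cnp). Unthinned, 8 of the 936 cells of the other types had no UMI of Mbp, and 5 had none of any of the 8 genes.

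Of the UMIs of the 8 genes in dorDG, 38.0% were read in the other types. The other types held 70.6% of all dorDG UMIs, 51.0% of the Mbp UMIs and 47.8% of the Mobp UMIs. Of the low set they held 20.2% (Mog), 13.0% (Ermn), 10.8% (Mag), 8.25% (Cnp), 6.26% (Cldn11) and 5.43% (Mal) of the UMIs. Summed over the 8 genes, oligodendrocytes stood at 318, the other types at 63.9 and OPC at 74.3.

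Some cells of the other types carried as much as an oligodendrocyte. The 5th percentile of the summed level over the Oligodend1 and Oligodend2 cells was 103, and 157 of the 936 cells of the other types reached it. By type these were 49 of 119 Granule, 37 of 180 Endothelial and 0 of 147 InhibNeuron cells. By replicate, 82 of the 157 came from dorDG Sham 2, and in its second reaction all 54 cells of the other types reached it.

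The mix of the 8 RNAs also differed between the 2 settings. Of the UMIs of the 8 genes in oligodendrocytes, Mbp made up 43.1%, Mobp 9.98% and the low 6 together 46.9%, led by Cnp (13.4%) and Cldn11 (10.2%). In the other types Mbp made up 77.0%, Mobp 15.1% and the low 6 together 7.93%. Over the 9 replicates the share of Mbp ran from 31.7% to 50.3% in oligodendrocytes and from 72.4% to 80.6% in the other types, with no overlap.

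The share of Mobp ran from 8.53% to 11.9% over replicates in oligodendrocytes and from 11.6% to 17.5% in the other types, so the ranges overlapped. There were 4.32 UMIs of Mbp per UMI of Mobp in oligodendrocytes (3.56 to 5.01 over replicates) and 5.11 in the other types (4.42 to 6.85 over replicates, 4.66 to 6.62 over types), and the ratio was higher in the other types in 8 of 9 replicates. The share of Mal ran from 4.85% to 10.6% in oligodendrocytes and from 0.380% to 0.983% in the other types, and Mag, Cldn11, Ermn and Cnp also had no overlap between the 2 settings. Of the low 6 only Mog overlapped, at 4.85% to 7.85% and 1.70% to 5.48%. In OPC the mix was 70.0% Mbp and 12.1% Cnp.

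The RNA of the second reactions had a mix of their own. Over both regions, Mbp made up 40.1% of the UMIs of the 8 genes in Oligodendrocyte-like cells of the first reactions, Mobp 9.25% and the low 6 together 50.7%. In Oligodendrocyte-like cells of the second reactions the shares were 58.6%, 15.4% and 26.0%, and the last was led by Mog (13.0%) and Mag (6.58%). In the other classes the low 6 made up 12.03% in the first and 5.40% in the second reactions.

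**Figure D2:**
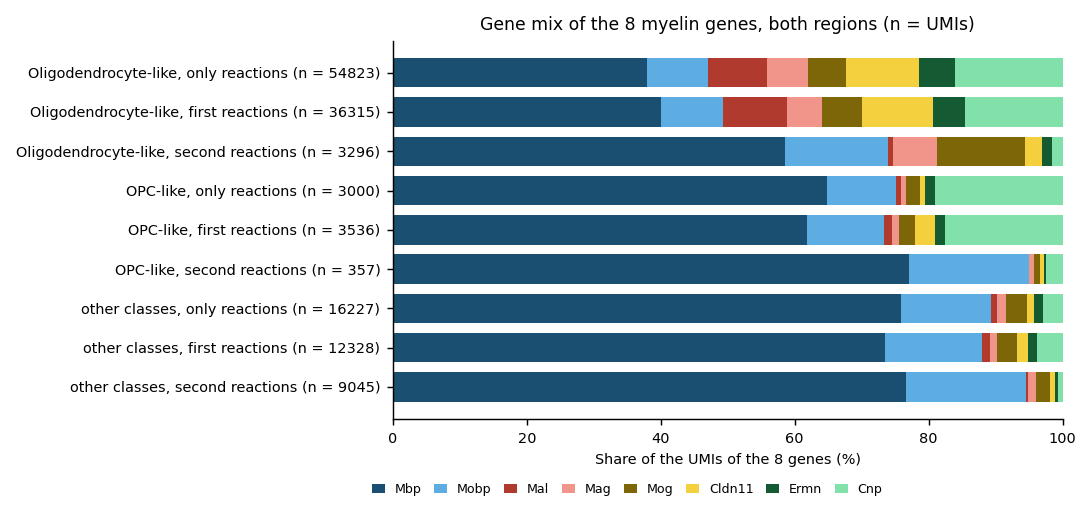
Share of each gene among the UMIs of the 8 myelin genes, in percent, for Oligodendrocyte-like cells, OPC-like cells and other classes of both regions, by kind of reaction, with the number of UMIs behind each bar. Mbp and Mobp fill most of the bars of the other classes, and Mal, Cldn11, Ermn and Cnp are nearly lost from the Oligodendrocyte-like bar of the second reactions, where Mag and Mog remain.

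In every reaction Mbp was lower in the other classes than in the Oligodendrocyte-like cells, but by very different amounts. Both kinds of cell reached 5 cells in 25 reactions. The level of Mbp in the other classes was 13.9% to 55.0% of that in Oligodendrocyte-like cells over the first reactions (median 28.0%), 17.2% to 41.7% over replicates with a single reaction (median 23.1%) and 19.0% to 98.2% over the second reactions (median 56.3%). As a difference of the levels, oligodendrocytes exceeded the rest by 72.1 to 92.0 in the first, 54.2 to 118 in single and 4.35 to 45.7 in the second reactions. For Mal the percentages were 0.675% to 4.76% in the first and 0.564% to 3.11% in single reactions. In the second reactions they were 3.77% to 64.7% (median 12.1%) over the 5 of 6 with a value, on few UMIs of Mal in either kind of cell.

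The extreme was the second reaction of dorDG Sham 2. There Mbp stood at 243 in Oligodendrocyte-like cells, at 229 in OPC-like cells and at 238 in the other classes, nearly level across cell classes, while Mal stood at 0.32 and 0.21 and Cnp at 1.29 and 0.52 in the first and last of these. The second reaction of venDG Sham 2 came next, with Mbp at 116 in Oligodendrocyte-like cells and 98.3 in the other classes.

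**Figure D3:**
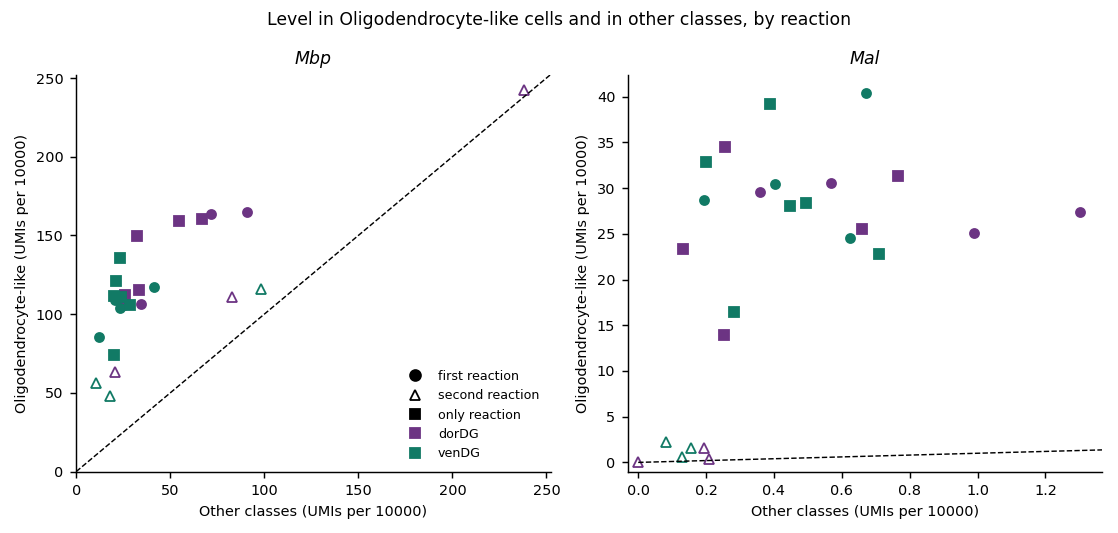
Level in Oligodendrocyte-like cells (vertical) against level in the other classes (horizontal) in 25 reactions, in UMIs per 10000, for Mbp and Mal. Symbols give the kind of reaction, colours the region and dashed lines equal levels. For Mbp the second reaction of dorDG Sham 2 lies on the dashed line near 240, and for Mal all second reactions lie at 2.20 or less on the vertical axis.

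Replicates with more oligodendrocyte RNA had more Mbp in the other types. Over the dorDG FT replicates 1, 2, 4 and 5, oligodendrocytes held 17.6%, 20.2%, 22.9% and 28.8% of the UMIs, and Mbp in the other types stood at 37.1, 41.4, 53.4 and 67.2. Over the dorDG Sham replicates 1 to 5 the shares were 19.7%, 34.0%, 17.2%, 10.9% and 22.2%, and the Mbp levels 41.5, 146, 32.3, 31.5 and 25.2. Within FT the order of the 2 measures was the same, and in Sham replicate 2 was highest in both and replicate 5 went against it.

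Pearson's r over the 9 replicates was 0.831 (exact permutation test, two-sided, p = 0.00264, Benjamini-Hochberg adjusted 0.00528 over the 2 coefficients) and Spearman's rho 0.733 (exact permutation p = 0.0311, adjusted 0.0311). Without dorDG Sham 2 and dorDG Sham 4, the replicates farthest from the median share, r was 0.761 (exact permutation p = 0.0512) and rho 0.607 (exact permutation p = 0.167), so the relation past the threshold rested on those 2. In cells with at least 2% ribosomal UMIs r was 0.618 (exact permutation p = 0.0788) and rho 0.30 (exact permutation p = 0.437). FT and Sham alone have too few replicates for a correlation. Free RNA taken up with a cell, RNA of an oligodendrocyte sharing its droplet and RNA made by the cell itself were not tested as sources. The word background below means the level in cells outside the oligodendrocyte lineage and names no source.

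Other myelin and oligodendrocyte genes covered a wide range. Of 43 such genes listed, 11 reached 10 UMIs per 10000 in oligodendrocytes, and of these 5 stood in the other types at under 5%, 5 between 5% and 20% (Car2, Pllp, Cd9, Bcas1 and Bin1, from 5.16% to 18.9%) and 1 at 20% or more of the oligodendrocyte level. The 1 was Lpar1, a lysophosphatidic acid receptor also made by other cells, at 10.5 and 6.48 (61.6%).

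By pattern over the 12 dorDG types, genes most like the sum of the 8 were Apod (r = 0.962), Qdpr (0.959), Ptgds (0.956) and Gjb1 (0.952), out of 4274 genes ranked. Apod, a lipid carrier, stood at 66.5 in oligodendrocytes and 1.59 in the other types, and Ptgds, which makes prostaglandin D, at 41.4 and 0.48. The types share replicates and depth, so these coefficients only describe likeness.

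The second reaction of a replicate differed from its first in most genes tested, and 4 of the 8 myelin genes nearly vanished from oligodendrocytes there. For this comparison counts were summed per reaction and tested with edgeR's quasi-likelihood test with the replicate as a block, and calls needed an adjusted p (Benjamini-Hochberg) no higher than 0.2 with a log2 fold change of 0.322 or more in size. In Oligodendrocyte-like cells, with 6 replicates that had 5 such cells in both reactions, 67.5% of 4140 genes were called and 36.8% were called and lower in the second, so a call by itself says little. All 8 myelin genes were called lower. Different clusters held most of the class: clusters 0 and 1 held 196 of its 199 cells in the first reactions, and cluster 5 held all 139 in the second.

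Mal was lowered most. Its levels in the first and second reactions were 30.6 and 0 in dorDG FT 2, 25.1 and 1.61 in dorDG Sham 1, 27.3 and 0.32 in dorDG Sham 2, 24.6 and 0.55 in venDG FT 1, 40.4 and 1.54 in venDG Sham 1, and 30.4 and 2.20 in venDG Sham 2. The first reactions never overlapped the second. The means were 29.7 ± 5.82 and 1.04 ± 0.87 (SD, n = 6), a log2 fold change of -5.65 (SE 0.39, edgeR quasi-likelihood test with Benjamini-Hochberg adjustment, adjusted p = 5.18e-45), and limma on levels gave an adjusted p of 0.00655. The edgeR p-value rests on a variance shared over genes more than on the spread of Mal over the 6 replicates.

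Cnp behaved alike. Its levels were 33.3 and 8.85 in dorDG FT 2, 53.9 and 1.88 in dorDG Sham 1, 40.7 and 1.29 in dorDG Sham 2, 44.9 and 2.21 in venDG FT 1, 59.1 and 2.097 in venDG Sham 1, and 31.6 and 1.46 in venDG Sham 2. Its log2 fold change was -4.93 (SE 0.36). Cldn11 fell from 31.2 ± 7.25 to 3.70 ± 1.84 (log2 fold change -3.90, SE 0.33) and Ermn from 13.7 ± 2.14 to 1.87 ± 1.16 (-3.68, SE 0.35). For these 4 genes the first and second reactions did not overlap, as held for 32.3% of all genes tested.

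Mag lay between the 2 extremes, at 16.0 ± 3.15 in the first and 10.0 ± 2.70 in the second reactions, lower in 6 of 6 replicates (log2 fold change -1.52, SE 0.29). The last 3 genes went both ways in level. Mbp in the first and second reactions stood at 106 and 111 in dorDG FT 2, 164 and 63.0 in dorDG Sham 1, 165 and 243 in dorDG Sham 2, 104 and 56.4 in venDG FT 1, 109 and 48.0 in venDG Sham 1, and 117.4 and 116 in venDG Sham 2. It was lower in 4 of 6 replicates, with overlapping ranges.

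The test's scaling mattered for the calls of those 3. edgeR's quasi-likelihood test with trimmed-mean scaling gave log2 fold changes of -1.29 for Mbp (Benjamini-Hochberg adjusted p = 2.76e-05), -1.05 for Mobp (adjusted p = 6.43e-04) and -0.96 for Mog (adjusted p = 0.00197). By the median over genes, log2 fold changes with that scaling lay 0.30 below those on plain UMIs per 10000, and for these 3 genes the gap was larger. On the plain scale limma gave -0.47 for Mbp (adjusted p = 0.406), -0.24 for Mobp (0.665) and -0.19 for Mog (0.748), and none of the 3 was called, while the other 5 were. The edgeR log2 fold changes of those 5 were also larger in size than the ratios of their mean levels.

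**Figure D4:**
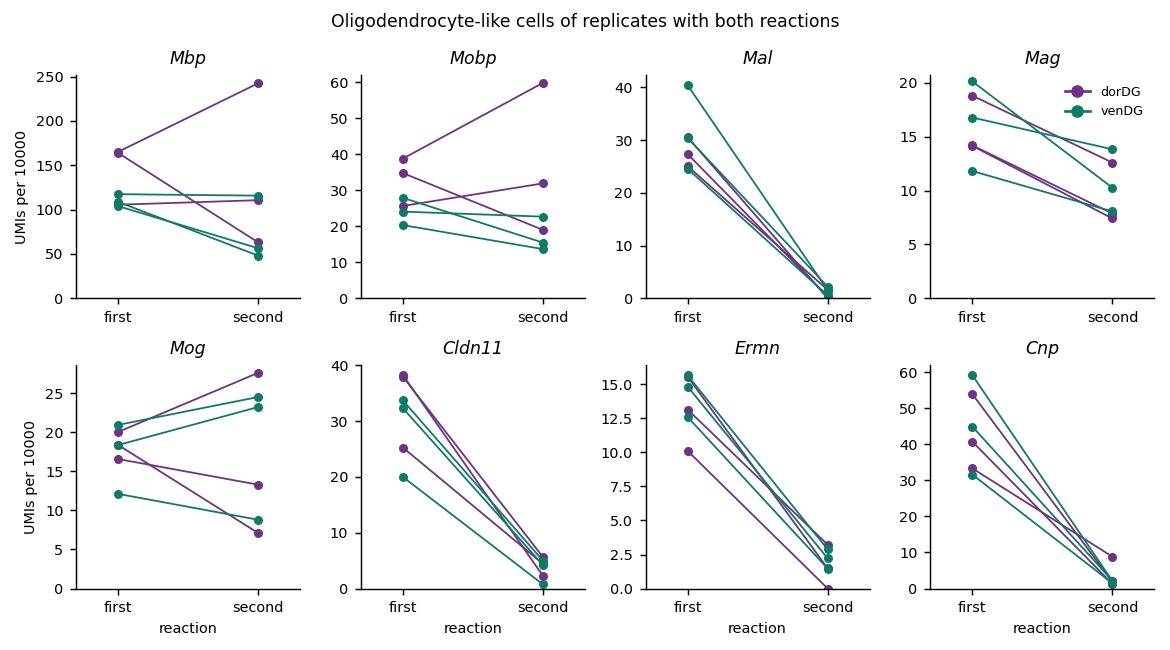
Level of each myelin gene in Oligodendrocyte-like cells of the first and the second reaction of 6 replicates, in UMIs per 10000, with lines joining the reactions of 1 replicate and colour giving the region. The lines of Mal, Cldn11, Ermn and Cnp fall in all 6 replicates, and those of Mbp, Mobp and Mog go both ways.

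A like split was found inside single reactions. In the 11 replicates with 1 reaction, 45 Oligodendrocyte-like cells fell in cluster 5 (median 943 UMIs and 0.441% ribosomal UMIs). Another 149 fell in cluster 0 (median 5266 UMIs and 4.35%) and 147 in cluster 1 (median 5325 UMIs and 4.96%). In clusters 5, 0 and 1 in turn, Mal stood at 1.44, 34.0 and 24.8, and Cnp at 2.35, 65.9 and 42.1. Mbp stood at 75.1, 136 and 115, and Mog at 24.9, 22.6 and 14.3. These values describe clusters and carry no test, and none of the 8 genes was used to form them.

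Over all cells of the 8 replicates with both reactions, 7 of the 8 genes were called lower in the second, where 84.1% of genes were called, 39.9% were called and lower, and 45.6% did not overlap. Mal fell by 5.80 on the log2 scale, Cnp by 5.14, Cldn11 by 4.45 and Ermn by 3.80, without overlap, and Mag by 2.25 and Mog by 2.00. Mbp had a log2 fold change of -0.64 (edgeR quasi-likelihood test, Benjamini-Hochberg adjusted p = 0.146), although its mean level was higher in the second reactions (69.0 against 59.8), so its direction depended on the scaling. Mobp was not called.

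In the other classes of the same 8 replicates, 83.3% of genes were called, 38.4% were called and lower, and 30.9% did not overlap. Of the 6 myelin genes past the filter on low counts, 4 were called lower: Cnp (log2 fold change -2.74, from 1.82 to 0.38, no overlap), Cldn11 (-1.99), Mog (-1.10) and Mag (-0.43). For Mag the mean level was 0.52 in the first and 0.57 in the second reactions, so that its direction turned with the scaling. Mbp stood at 39.8 in the first and 67.5 in the second reactions (-0.03) and was lower in 3 of 8. Mobp stood at 7.94 and 15.6 (0.22). Mal, under the filter, went from 0.64 to 0.11 and was lower in 8 of 8.

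Of the 43 other myelin and oligodendrocyte genes, 36 were tested in the Oligodendrocyte-like cells, and 29 were called lower and 2 higher in the second reactions, with a median log2 fold change of -2.04 beside 0.09 over all genes. The lowest were Olig1, a lineage transcription factor (-6.31), and Cryab, a small heat-shock protein (-5.96). The 2 called higher were Hapln2, a matrix link protein of the node (2.88), and Fa2h, which hydroxylates myelin lipids (0.64), both among the leading genes of cluster 5. Over all cells, where clusters play no part, 28 of 32 were called lower (median -2.63; Cryab and Olig1 -5.82 each) and 1 higher, Hapln2 (1.71). In the other classes 13 of 22 were called lower and 3 higher (median -0.98), from Cryab (-3.59) and Evi2a (-2.55) to Nfasc (0.71) and Hapln2 (4.18).

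Between the regions no myelin gene was called. In Oligodendrocyte-like cells (10 venDG and 9 dorDG replicates) Mbp stood at 104 ± 19.3 in venDG and 137 ± 27.2 in dorDG (log2 fold change -0.40, SE 0.14, edgeR quasi-likelihood test, Benjamini-Hochberg adjusted p = 0.999), and the other 7 lay between -0.35 for Mobp and 0.09 for Ermn. Mbp and Mobp had an unadjusted p under 0.05, and Mbp was lower in venDG in 9 of 9 same-numbered pairs. Of all genes 0.0287% were called in this comparison. Of the 43 other genes 0 of 38 tested were called.

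The background of Mbp was lower in venDG by its mean, and whether it was called depended on the fit. In the other classes Mbp stood at 24.9 ± 12.8 in venDG (n = 10) and 52.3 ± 36.7 in dorDG (n = 9), a log2 fold change of -1.10 (SE 0.33, edgeR quasi-likelihood test, Benjamini-Hochberg adjusted p = 0.362). Mobp followed at 5.02 and 10.2 (-1.04, adjusted p = 0.495), with Mog at -0.77 and Mag at -0.75, and these 4 of the 7 tested had an unadjusted p under 0.05. Of all genes 0.191% were called, and 0 of 20 other myelin genes. DESeq2 called Mbp (-1.09, adjusted p = 0.124), and so did edgeR without venDG Sham 2. Of the 9 same-numbered pairs of replicates, Mbp was lower in venDG in 8, the other being Sham 5 (28.4 in venDG and 25.9 in dorDG). With the replicate as a block, edgeR's quasi-likelihood test also called it (-0.94, SE 0.21, Benjamini-Hochberg adjusted p = 0.175). The shares of all genes called in these other fits are not given here. Over all cells 0.192% of genes were called, with Mbp at -0.73 (adjusted p = 0.689) and Mobp at -0.61, and 0 of 8 and 0 of 32.

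Under fluoxetine 1 of the 8 genes was called in 1 cell type, Mal in Oligodend1 of dorDG. Its levels were 42.5, 27.3, 34.1 and 31.2 in FT replicates 1, 2, 4 and 5, and 19.6, 16.0, 12.4, 32.8 and 23.8 in Sham replicates 1 to 5. All FT replicates lay above all Sham replicates other than Sham 4, which overlapped 2 of them. The means were 33.8 ± 6.44 (n = 4) and 20.9 ± 7.88 (n = 5), a log2 fold change of 0.76 (SE 0.26, edgeR quasi-likelihood test with Benjamini-Hochberg adjustment, adjusted p = 0.174), in a comparison where 6.15% of genes were called.

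This call was not stable. Over 19 alternative settings its adjusted p ran from 0.0729 to 0.997, and it was kept in 6 and lost in 13. The share of cells low in ribosomal UMIs moved with the groups: of the Oligodend1 and Oligodend2 cells 4.76% to 34.2% had under 2% ribosomal UMIs in FT and 40.7% to 65% in Sham, without overlap, and cluster 5 held 18.8% of the Oligodend1 cells of FT and 58.9% of those of Sham. In cells with at least 2% ribosomal UMIs the log2 fold change of Mal was 0.38 (adjusted p = 0.997), and without the second reactions 0.52 (adjusted p = 0.741).

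The other 7 genes were not called in Oligodend1. Mbp stood at 143 ± 37.8 in FT and 144 ± 44.0 in Sham (log2 fold change 0.06), and the others lay between -0.54 for Mag and 0.38 for Ermn. For Mag, 1 cell set the mean of the Sham group. Sham 4 stood at 70.7 beside 13.6 to 18.3 in the other Sham replicates, and 261 of its 293 Mag UMIs came from a single cell of 19455 UMIs, without which it stood at 14.5. The same cell held 395 of 488 Cnp UMIs and 225 of 268 Cldn11 UMIs of that replicate's 10 Oligodend1 cells.

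In Oligodend2 (4 FT and 3 Sham replicates with at least 5 cells) 0 of 8 genes were called and none had an unadjusted p under 0.05, with log2 fold changes from -0.43 for Mobp to 0.19 for Mal, where 0.029% of genes were called. In OPC 0 of 8 were called, where 0% of 4450 genes were called (211 at an unadjusted p under 0.05, and 0 by DESeq2 or limma). Mobp there stood at 6.42 ± 2.19 in FT (n = 4) and 14.8 ± 12.4 in Sham (n = 3), a log2 fold change of -1.14 (edgeR quasi-likelihood test, Benjamini-Hochberg adjusted p = 0.936).

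In Oligodendrocyte-like cells of venDG 0 of 8 genes were called, where 0.142% of genes were called. Ermn came closest, at 13.8, 20.6, 20.8, 15.8 and 19.6 in FT replicates 1 to 5 and 10.2, 11.3, 7.33, 14.5 and 15.1 in the Sham replicates. Only FT 1 fell inside the Sham range. The means were 18.1 ± 3.15 and 11.7 ± 3.196 (n = 5 each), a log2 fold change of 0.65 (SE 0.23, edgeR quasi-likelihood test, Benjamini-Hochberg adjusted p = 0.331). A fit blocked by replicate number called it (0.66, edgeR quasi-likelihood test, Benjamini-Hochberg adjusted p = 0.143). The share of all genes called in that fit is not given here. The other 7 lay between 0.06 for Mbp and 0.32 for Cnp.

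The background of Mbp and Mobp did not pass the test for treatment in either region. In the other types of dorDG, where 27.1% of genes were called, Mbp stood at the 37.1, 41.4, 53.4 and 67.2 (FT) and the 41.5, 146, 32.3, 31.5 and 25.2 (Sham) given above. The ranges overlapped, and the log2 fold change was -0.16 (SE 0.58, edgeR quasi-likelihood test, Benjamini-Hochberg adjusted p = 0.852). A single replicate set this value. Without dorDG Sham 2, Mbp was called higher in FT at 0.79 (adjusted p = 0.111), Mobp at 0.59 (0.195) and Ermn at 1.10 (0.108), in a fit in which 47.7% of genes were called.

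In the other classes of venDG, where 0% of 4134 genes were called (223 at an unadjusted p under 0.05, 13 by DESeq2 and 0 by limma), Mbp stood at 18.7, 14.4, 23.6, 21.4 and 20.02 in FT and at 19.4, 59.9, 20.1, 23.4 and 28.4 in Sham. All FT replicates lay at or below 23.6, and Sham 2 stood far above the rest (log2 fold change -0.63, edgeR quasi-likelihood test, Benjamini-Hochberg adjusted p = 0.861). Of the 4 genes past the filter there, Mobp stood at -0.67, Mog at -0.46 and Cnp at 0.17, none called. Sums over all cells called 0 of 8 genes in dorDG, where 28.6% of genes were called, with Mal at 0.46 (adjusted p = 0.377) and Mbp at -0.03. They called 0 of 8 in venDG, where 0% of 4079 genes were called (236 at an unadjusted p under 0.05, 18 by DESeq2 and 0 by limma).

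Cells under 2% ribosomal UMIs also moved with treatment in dorDG as a whole, at 15.3% to 44.7% of cells in FT and 33.3% to 73.0% in Sham, and their part in these values was not tested beyond the settings given. Summed oligodendrocyte markers in the other types ran from 5.87 to 11.2 in FT and from 5.94 to 15.3 in Sham.

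**Figure D5:**
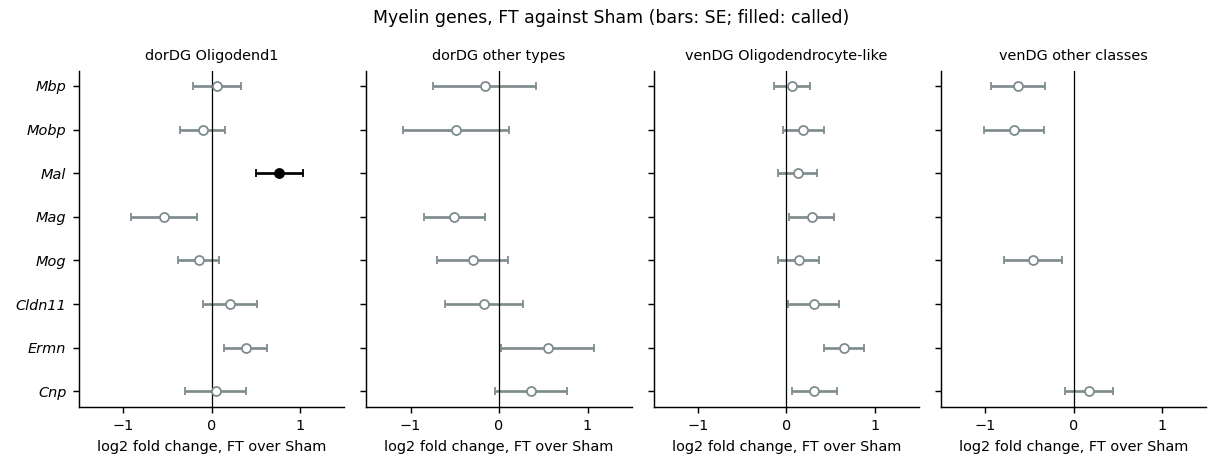
Log2 fold change of FT over Sham for the 8 myelin genes in dorDG Oligodend1, dorDG other types, venDG Oligodendrocyte-like cells and venDG other classes, with bars of 1 SE; genes under the filter have no point. The filled point, Mal in Oligodend1 at 0.76, is the only call of the 4 comparisons.

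The treatment effect was not shown to differ between regions. The interaction of region and treatment called 0 of 8 genes in Oligodendrocyte-like cells, where 0% of 3486 genes were called (166 at an unadjusted p under 0.05, 0 by DESeq2 and 0 by limma). It called 0 of 7 in the other classes, where 0% of 4199 were called (453, 51 and 0 in turn). The largest differences, venDG effect minus dorDG effect, were 0.71 for Mag in Oligodendrocyte-like cells (SE 0.44) and -0.41 for Mbp in the other classes (SE 0.66). The former rested on dorDG Sham 4, whose Mag level of 52.1 was 18.0 without the single cell described above.

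Of the 43 other myelin and oligodendrocyte genes, at most 3 were called for treatment in any comparison. In Oligodend1, where 6.15% of all genes were called, 39 were tested and 2 were higher in FT, Cryab (0.95) and Ndrg1, needed for the upkeep of peripheral myelin (0.94), and 1 was lower, Aspa, which splits N-acetylaspartate (-1.04), with a list median of 0.04 beside -0.03 over all genes. In the other types of dorDG, beside 27.1% of all genes called, 2 of 21 were higher, Cd9 (0.73) and Evi2a (0.80), and over all dorDG cells, beside 28.6%, 2 of 32, Cd9, a tetraspanin (0.69), and Pllp, a myelin proteolipid (0.73). In the remaining comparisons none was called, among 37 tested in Oligodend2, 24 in OPC and, in venDG, 38 in Oligodendrocyte-like cells, 18 in other classes and 32 over all cells.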

How the data were processed

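Dorsal and ventral dentate gyrus libraries were made with the 10x Chromium 3′ v2 kit. Per the labels and the submitters' processing notes, the authors aligned reads to rn5 with Cell Ranger and typed cells with Seurat 3. What they deposited for each region is a table of unscaled UMI counts with genes in rows and cells in columns, and the authors deposited a cell type for each dorDG cell. Of the venDG columns, 170 with a second suffix, 167 of which repeat a barcode of the same reaction, were not used. A table of log-scaled venDG values was not used. The authors had removed cells by genes, UMIs and mitochondrial share, and no doublet caller was run here.

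Counts were summed per replicate, or per reaction, and cell class over units with at least 5 cells, and tested with edgeR 4.0.16 (quasi-likelihood test, trimmed-mean scaling, R 4.3.3) on genes averaging 0.5 UMIs per 10000 or more. Calls needed an adjusted p (Benjamini-Hochberg, over all genes tested) no higher than 0.2 and a log2 fold change of 0.322 or more in size, the study's thresholds. FT was compared with Sham, venDG with dorDG, and the second with the first reaction (replicate as block), and region by treatment as an interaction. Cells were clustered with scanpy 1.11.5 (Leiden, resolution 2) without the 8 genes. Cells were thinned to 1000 UMIs for shares of cells. DESeq2 1.42.0, limma 3.58.1 (pseudocount 0.01), other scaling, no filter, a replicate block, cells with at least 2% ribosomal UMIs, omission of second reactions and of each replicate were the alternatives. The tests were checked on simulated counts.

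All 8 genes were named in every comparison, and of 43 other myelin and oligodendrocyte genes those called with the 2 highest and 2 lowest fold changes. Genes and lists were chosen with earlier results of these data known. Promoter windows came from RefSeq (GRCr8). Of the 5 genes most like the sum of the 8 by pattern over types, 4 are given, and 1 result is not reported here.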

Additional observations from a re-analysis of the deposited data

Results flagged for a closer look

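A replicate was singled out where its distance to the nearest other replicate of its group, as a part of the group's range, passed Dixon's 95% limit. This was looked for in 128 groups of 4 or 5 replicates (gene, cell class, region and treatment), and 16 had such a replicate, where chance gives about 1 in 20. Values are UMIs per 10000, and no cause was weighed.

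Most belonged to 2 replicates. In dorDG Sham 4, Oligodend1 stood at 70.7 for Mag (other Sham replicates 13.6 to 18.3), 35.7 for Mog (20.9 to 23.8) and 118 for Cnp (25.2 to 46.5). Oligodend1 and Oligodend2 together (14 cells) stood there at 52.1 for Mag (12.9 to 17.6), 59.8 for Cldn11 (23.5 to 33.5) and 92.8 for Cnp (28.4 to 44.1). A single cell held 261 of the 345 Mag UMIs, 225 of the 396 Cldn11 UMIs and 395 of the 614 Cnp UMIs of those 14 cells, and without it they stood at 18.0, 36.6 and 46.9.

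In dorDG Sham 2, the other types stood at 146 for Mbp (25.2 to 41.5) and 32.6 for Mobp (4.46 to 9.38), and all cells at 156 (43.4 to 64.3) and 35.6 (8.73 to 14.1). No single cell set these values: the cell with the most Mbp held 6.33% of the Mbp UMIs of the other types. In venDG Sham 2, the other classes stood at 59.9 for Mbp (19.4 to 28.4) and 13.3 for Mobp (3.41 to 5.61).

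The remaining values were Ermn in dorDG FT 5, at 1.49 in the other types (0.458 to 0.583 in the other FT replicates) and 5.36 over all cells (2.83 to 3.23), and dorDG FT 2, at 23.0 for Cldn11 in Oligodend1 (38.5 to 41.6) and 27.4 for Mal in Oligodend2 (21.5 to 21.9).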

How the results depend on the processing

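Of 557 recomputed counts of called myelin genes, correlations, levels and mixes, 530 stayed near the value given, 25 moved and 2 lost significance. Of 2491 recomputed log2 fold changes 2264 kept direction and call, 177 changed sign with no call in either fit, 20 gained and 27 lost a call, and 3 changed sign and were called, each without dorDG Sham 2. Causes were not tested.

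The 1 call of FT against Sham in dorDG Oligodend1 (Mal) became 0 with DESeq2's size factors, with limma, without the filter on low counts, at an adjusted p of 0.05, with a replicate block, in cells with at least 2% ribosomal UMIs and without the second reactions. Leaving out single replicates gave 0 to 2 (Mal and Cnp without dorDG Sham 4). Over all dorDG cells, leaving out single replicates gave 0 to 3 calls, the 3 (Mbp, Mal, Ermn, with 46.8% of genes called) without dorDG Sham 2, and Mbp ran from -0.21 to 0.62. In the dorDG other types the calls also ran from 0 to 3 (47.7% of genes called without dorDG Sham 2), Mbp from -0.38 to 0.79 and Mobp from -0.72 to 0.59. In venDG Oligodendrocyte-like cells the replicate block called 1 gene, Ermn, and leaving out single replicates gave 0 to 4 (Mag, Cldn11, Ermn and Cnp without venDG Sham 4, with 17.8% of genes called). Between regions, DESeq2 and the replicate block each called 1 gene in the other classes, Mbp, and leaving out single replicates gave 0 to 1 (without venDG Sham 2). The interaction in the other classes gave 0 to 2 (Mbp and Mobp without dorDG Sham 2). For the second against the first reaction in Oligodendrocyte-like cells limma called 5 genes rather than 8. Where the share of all genes called is not given beside such a count, the count does not set the myelin genes apart from other genes.

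The correlation of Mbp in the other types with oligodendrocyte RNA was 0.761 without the 2 farthest replicates and 0.618 in cells with at least 2% ribosomal UMIs. Averaged over cells rather than summed, Cnp in the other types was 4.47% of the oligodendrocyte level. Without the second reactions, an alternative added after seeing the data, Mal made up 0.872% of the 8 genes' UMIs in the other types.

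The study's methods say that Sham and FT of a replicate were handled in parallel, in a passage on the bulk assays. For the single-cell replicates of FT and Sham, no source says that equal numbers mark a pair. The number did go with the reactions: their names ran in its order, and replicates 1 and 2 of every group had 2 reactions. The main fits for treatment and region held no replicate block. Both regions were punched from the brains of each treatment group per the study's methods, which do not say that equal numbers mark 1 pool, and same-numbered regions correlated in their deviations at 0.09 to 0.55 over all cells (8 of 9 pairs over 0.1), 0.02 to 0.28 in Oligodendrocyte-like cells (4 of 9) and 0.04 to 0.62 in the other classes (7 of 9). In no comparison with 3 or more pairs did all same-numbered replicates deviate together (correlation over 0.1): in dorDG Oligodend1 the 4 pairs ran from 0.03 to 0.15, in venDG Oligodendrocyte-like cells the 5 pairs from 0.08 to 0.25. The replicate block changed no call of a myelin gene for treatment or region besides those given. For the second against the first reaction, where the block is part of the test, no replicate block lost Mbp over all cells (6 calls) and Mag in the other classes (3 calls) and kept all 8 in Oligodendrocyte-like cells. Levels under 1 UMI per 10000 in the other types rest on few counts in single replicates, and differences among them were not detectable at this depth.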
